A study of Mus musculus with 14 samples.

Results

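Cell adhesion and axon guidance genes were examined as a group among the genomic regions listed for NKX2.2 binding in alphaTC6, a line of mouse pancreatic alpha cells, the islet cells that secrete glucagon. NKX2.2 is a homeodomain transcription factor of the endocrine pancreas, and KLF4 is a zinc-finger transcription factor. The group holds every region whose nearest protein-coding gene belongs to the cadherins and cadherin-related proteins (symbols beginning with Cdh), protocadherins (Pcdh), neurexins (Nrxn), neuroligins (Nlgn), semaphorins (Sema), plexins (Plxn), roundabout receptors (Robo), slits and the similarly named Slitrk proteins (Slit), Eph receptors (Epha, Ephb), ephrins (Efna, Efnb), Lrrtm proteins, contactins and contactin-associated proteins (Cntn), netrin receptors (Unc5, Dcc) or neural cell adhesion molecules (Ncam1, Ncam2). These were 85 of the 6758 regions and lay nearest to 49 genes. The rule used symbols and positions, not the measured differences, but it was chosen with earlier results of these data known.

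The study compared NKX2.2 chromatin immunoprecipitation followed by sequencing (ChIP-seq) between 3 samples that had received siRNA (small interfering RNA) directed at Klf4 and 4 that had received a scrambled siRNA, in a 48 h transfection. All were wild-type alphaTC6 cells. A further 4 scramble and 3 knockdown input samples are labelled as such and were not analysed here. The authors' deposited table gives, for each region, a log2 fold change between these ChIP groups, a combined p-value and a false discovery rate (FDR) adjusted over all 6758 regions. It names no numerator, so a positive value is called up and a negative value down as the table lists them, without reading either as gain or loss upon knockdown. All log2 fold changes, p-values and FDR values that follow are those of the authors' deposited table. It carries no value for any sample. Whether groups overlapped, the replicate spread and the read depth are therefore unknown, and neither the Klf4 knockdown nor the alpha-cell identity of the cultures could be checked against marker levels.

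Cadherins join neighbouring cells through calcium-dependent contacts, and protocadherins and contactins add further specificity to such contacts. Neurexins, neuroligins, Lrrtm and Slitrk proteins organize synapses. Semaphorins signal through plexins, slits through roundabout receptors, ephrins through Eph receptors, and netrins through Dcc and Unc5 receptors. In the pancreatic islet, cadherins and neural cell adhesion molecules take part in the sorting of endocrine cells, Robo receptors in islet architecture, and contacts between ephrin-A and EphA proteins in hormone secretion.

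At Epha7 and Cntnap2, a region overlapped the RefSeq promoter window of its gene (from 250 bases before to 50 bases after the transcription start, build GRCm38). Promoter entries were matched for 35 of the 49 genes, which are nearest to 59 of the 85 regions. The bases before the start are shown for both genes because they are the places where a promoter sequence lies at or against a region of the group. The Epha7 stretch, chr4:28812881-28813010 on the plus strand, is the part of its region inside the window and runs from 250 to 121 bases before the start. The Cntnap2 stretch, chr6:45059901-45060060 on the plus strand, is the 160 bases before a start that lies 40 bp from the region. Capitals mark the KLF core motif CACCC or the NK2 homeodomain core motif AAGTG on either strand.
Epha7: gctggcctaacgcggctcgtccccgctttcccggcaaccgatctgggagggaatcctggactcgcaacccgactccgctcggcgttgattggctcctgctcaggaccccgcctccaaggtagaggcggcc
Cntnap2: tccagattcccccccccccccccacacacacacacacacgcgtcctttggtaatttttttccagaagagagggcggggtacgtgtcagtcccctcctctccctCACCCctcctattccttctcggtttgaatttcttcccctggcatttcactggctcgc

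The Cntnap2 stretch held CACCC 1 time, a motif present on either strand in 39.2% of the 32851 promoters at the same positions. AAGTG was in neither stretch, and 28.0% of promoters held it over the positions of the Cntnap2 stretch. In the Epha7 stretch neither core motif was found, and over its positions 23.9% of promoters held AAGTG and 31.0% held CACCC. The longer motifs CACTTNA and CCACACCC were in neither stretch, against 6.30% and 2.32% of promoters over the Cntnap2 positions. The Epha7 stretch was 67.7% G or C, against a median of 50.8% over all promoters, and the Cntnap2 stretch 56.9% against 53.8%.

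Of the 85 regions, 1 differed between the ChIP groups at an FDR of 0.05 in the authors' deposited table, a region beside Cdh11 listed as up. The share is 1.18% of the group, against 1.36% of all regions. At an FDR of 0.1 there were 4 of 85, or 4.71%, against 2.31% of all regions; the further 3 lay nearest to Sema6d and Plxna2, listed as up, and Epha7, listed as down. An unadjusted p-value of 0.05 or lower was listed for 10 of the 85, or 11.8%, against 11.2% of all regions, a share close to the background. Of these 10, 7 were positive and 3 negative, against 510 positive and 249 negative of the 759 such regions in the whole table. Over the 6726 regions on assembled chromosomes, the only ones that could join the group, the 3 shares are slightly lower. They are 1.25% at an FDR of 0.05, 2.16% at an FDR of 0.1 and 10.9% at an unadjusted p-value of 0.05.

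In the authors' deposited table, 56 of the 85 regions had a positive log2 fold change and 29 a negative one, or 34.1% negative (95% Wilson interval 24.9 to 44.7%). Over all regions 43.2% were negative. The median of the group was 0.08, with a 95% interval from order statistics of 0.01 to 0.22, and the median over all regions was 0.04. These contrasts did not hold under 2 other choices. Among regions inside or within 10 kb of a gene, 41.2% of the group and 45.1% of all were negative, and both medians were 0.03. With genes of every kind allowed in the assignment, 52 regions remained, 42.3% negative and with a median of 0.02. The group's median then lay below the 0.04 of all regions, and its negative share was close to the 43.2% of all regions. The values ran from -0.80 at Cntnap2 to 1.62 at Cdh11. These intervals describe regions, which are not replicates, and some regions share a gene. The typical size of a difference was alike, with a median absolute log2 value of 0.28 in the group and 0.27 in the table.

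**Figure D1:**
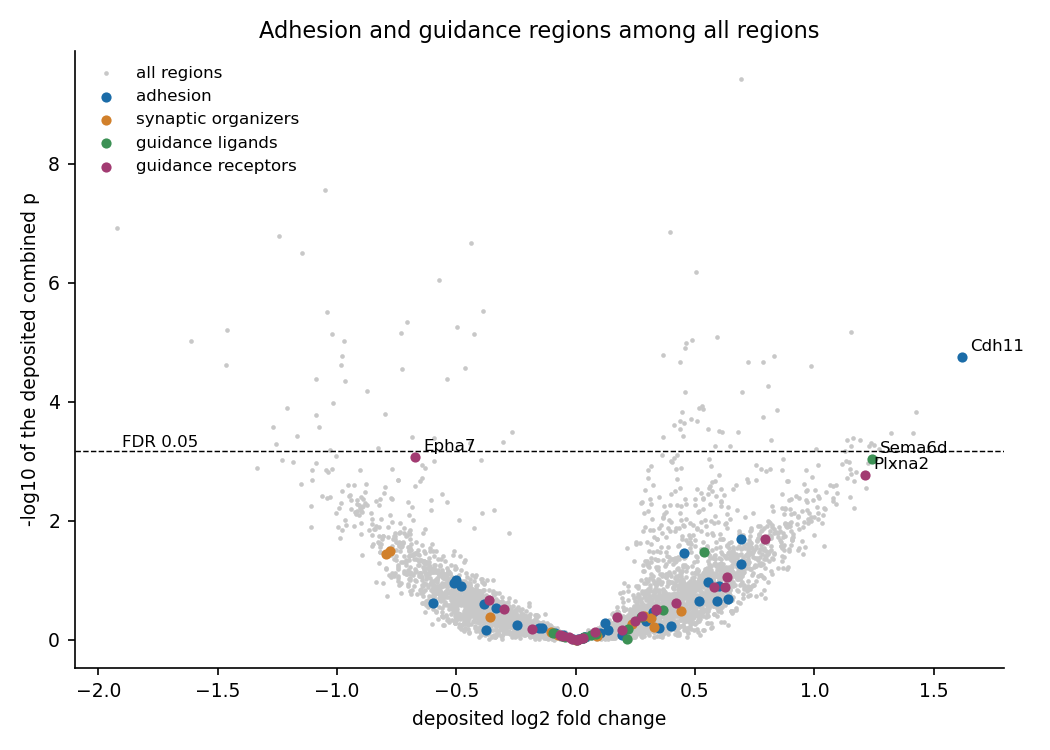
Deposited log2 fold change (x axis) against the negative log10 of the deposited combined p (y axis) for all 6758 regions in grey and the 85 adhesion and guidance regions coloured by role. Cdh11 lies farthest right of all points and above the dashed line at FDR 0.05, Epha7, Sema6d and Plxna2 lie just under that line, and the other 81 regions lie lower.

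The group held regions from the upper end of the table. A log2 fold change of 1 or more was listed for 3 of the 85 regions (3.53%), against 53 of 6758, or 0.784%. The Cdh11 region had the highest value of the whole table, the Sema6d region the 9th highest and the Plxna2 region the 14th highest. At the other end, none of the 85 had a value of -1 or lower, against 35 in the table (0.518%). The 35 include regions on contigs, which could not join the group. An absolute value of 1 or more was listed for 88 of all regions and for 81 of those on assembled chromosomes. The limit of 1 was chosen after the values were seen, and no test was made of these shares.

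The regions were compact. Their median width was 110 bp with 3 windows, as in the whole table, and 1 of the 85, at Cdh13, was wider than 1 kb. In all they held 285 of the table's 26762 windows, of which the table marks 15 as up (5.26%) and 7 as down (2.46%). Over all regions 4.63% of windows are marked as up and 7.66% as down, and the share marked as down is 5.12% over those on assembled chromosomes. The direction column listed 45 regions as up (52.9%), 23 as down (27.1%) and 17 as mixed, against 47.2% up and 33.4% down over all regions.

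**Figure D2:**
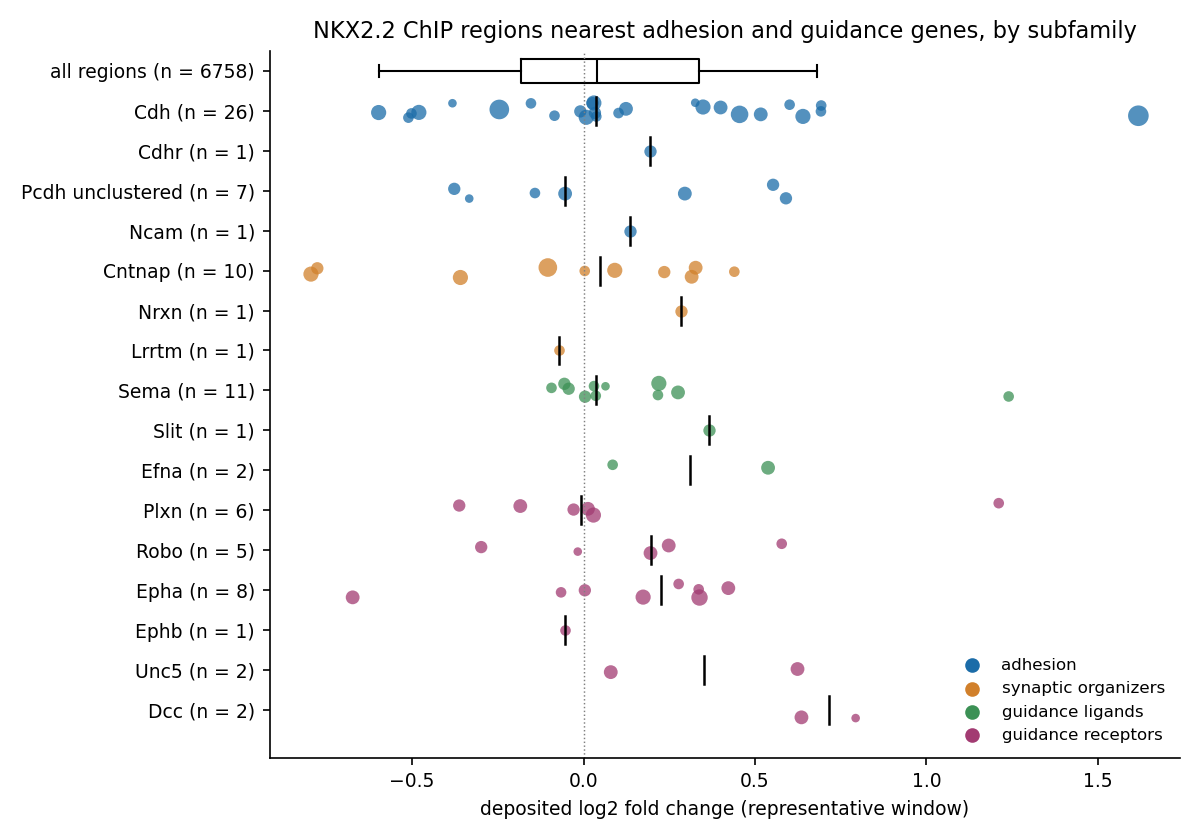
Deposited log2 fold change (x axis) of each of the 85 regions by subfamily (rows), with point area growing with the number of windows, a black bar at each subfamily's median, and a box for all 6758 regions (quartiles, whiskers from the 5th to the 95th percentile). Most points lie within the whiskers, and Cdh11 at 1.62, Sema6d at 1.24 and Plxna2 at 1.21 stand to the right. The Cdhr, Ncam, Nrxn, Slit, Efna, Unc5 and Dcc points, 1 or 2 for each, are all positive. The 1 Ephb point and the 1 Lrrtm point are negative. Of all regions, 56.8% are positive.

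Adhesion proteins made up 35 regions at 21 genes, with 22 positive and 13 negative values and a median of 0.04. The cadherins alone had 26 regions at 14 of their 23 genes, with 17 positive and 9 negative values. A median of 0.04 (range -0.60 to 1.62) placed them at the level of the whole table.

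Cdh11 encodes cadherin-11, a cadherin of mesenchymal cells. Its called region lies on chromosome 8 from 102792401 to 102792860, outside any protein-coding gene, 6.91 kb beyond the higher-coordinate end of Cdh11. It is 460 bp wide and has 10 windows, the most of the group, of which the table marks 4 as up. The authors' deposited table gives it a log2 fold change of 1.62, or 3.07-fold (p = 1.77e-05, FDR 0.0043). The best window of the region has the same log2 fold change, at an FDR of 0.0048. The next protein-coding gene, Cdh5, is 1309 kb away, so the assignment to Cdh11 does not hinge on a close rival.

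The other regions of Cdh11 did not share this value. A region inside the gene, from 102700501 to 102700560, had a log2 fold change of -0.51 in the authors' deposited table (p = 0.111, FDR 0.618). That region is the nearest listed region on that side, 91.8 kb from the called one. The last region, 129 kb from the gene on the lower-coordinate side, was listed at -0.01 (p = 0.971 in the authors' deposited table). Among the 3 regions, 1 was therefore called up and the other 2 were negative without passing the threshold.

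Cdh13, which encodes the membrane-anchored T-cadherin, had the most regions of the group, 7, of which 5 lay within its 1185 kb and 2 beyond its lower-coordinate end. The authors' deposited table lists their log2 fold changes, from the lower to the higher coordinate, as 0.04, 0.69, 0.40, -0.25, 0.03, 0.60 and -0.50. The smallest p-value, 0.054, belonged to the region 10.2 kb outside the gene, with an FDR of 0.466. None of the 7 passed the threshold, and signs were mixed along the gene. The region at -0.25 spans 1260 bp with 9 windows and is the widest of the group.

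Cdh1 encodes E-cadherin, the main cadherin of epithelial cells. Its 1 region, on chromosome 8 from 106672651 to 106672960, lies 2.40 kb from the gene and had a log2 fold change of 0.46 in the authors' deposited table (p = 0.0346, FDR 0.377). The table marks 2 of its 7 windows as up. At Cdh2, which encodes N-cadherin, the 1 region lay inside the gene and was listed at -0.15 (p = 0.637 in the authors' deposited table).

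Among other cadherins, an unadjusted p-value under 0.05 was listed at Cdh19 alone. Its region, 359 kb from the gene, had a log2 fold change of 0.69 as the authors deposited it (p = 0.0205, FDR 0.295), and both windows are marked as up. Cdh5, the cadherin of endothelial contacts, had 2 distant regions at 0.33 and 0.64, the nearer of them 468 kb away. At Cdh23, a component of hair-cell tip links, the 2 regions inside the gene were listed at 0.01 and -0.48 (smaller p = 0.127 in the authors' deposited table).

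Several cadherin regions had lower values without passing any threshold. Cdh22 had the lowest value of the cadherins in the authors' deposited table, -0.60, at a region inside the gene (p = 0.245), and 0.10 at a region 4.74 kb outside. Cdh20 had 1 single-window region at -0.38 (p = 0.255 in the authors' deposited table). The remaining cadherins, Cdh4, Cdh6, Cdh8, Cdh10 and Cdh18, had values between -0.08 and 0.52. Those of Cdh6 and Cdh8 lay over 1 Mb from their genes, and the best window of the Cdh8 region, listed at 0.52, was at -0.42. The cadherin-related gene Cdhr3 had 1 region, at 0.19 and 8.90 kb from the gene.

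Protocadherins had regions only outside the clustered families. None of the 57 clustered genes (Pcdha, Pcdhb and Pcdhg) was nearest to a region, whereas 5 of the 12 unclustered genes were, with 7 regions. Their values in the authors' deposited table ran from -0.38 to 0.59, with a median of -0.05 and 4 of 7 negative. The smallest p-value, 0.106, was at Pcdh19, with a log2 fold change of 0.55. Pcdh10 had a region at 0.59 that lay 146 kb from the gene, Pcdh17 had regions at 0.30 and -0.14, and Pcdh9 had regions at -0.05 and -0.38. Pcdh1 had a single-window region 0.803 kb from the gene at -0.33 (p = 0.295 in the authors' deposited table).

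For the neural cell adhesion molecules, Ncam2 had 1 region, 928 kb from the gene, at 0.14 (p = 0.676 in the authors' deposited table). No listed region was nearest to Ncam1. None was nearest to any of the 6 contactin genes.

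Synaptic organizers, counted together with contactin-associated proteins, made up 12 regions at 6 genes. There were 7 positive and 5 negative values, with a median of 0.05. Contactin-associated proteins, which the prefix for contactins also takes in, had 10 of these regions at 4 of 7 genes. They held the 2 lowest values of the group.

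Cntnap2 encodes a neurexin-like protein of axons and is the longest gene of the group at 2241 kb. It had 6 regions, which the authors' deposited table lists from the lower to the higher coordinate at -0.80, 0.00, -0.10, 0.09, 0.32 and -0.36. The first, on chromosome 6 from 45060101 to 45060310, begins 40 bp inside the start of the gene, next to the promoter stretch shown above. Its deposited p-value from the authors was 0.0361 (FDR 0.384), and the table marks 2 of its 5 windows as down. The other 5 had p-values of 0.422 or higher, so the low value at the start was not shared along the gene.

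Cntnap5b had 1 region inside the gene at -0.78 in the authors' deposited table (p = 0.0319, FDR 0.365). Cntnap1, a protein of the contacts between axon and myelin, had 2 regions inside the gene at 0.44 and 0.33 (smaller p = 0.329 in the authors' deposited table); the best window of the latter was listed at -0.36. Cntnap4 had 1 region at 0.24, 24.1 kb from the gene. Neurexin 3 (Nrxn3), a presynaptic receptor for neuroligins, had 1 region at 0.29 inside the gene (p = 0.405 in the authors' deposited table), and Lrrtm4, a postsynaptic partner of neurexins, had 1 at -0.07 (p = 0.824). No listed region was nearest to any of the 3 neuroligins or the 6 Slitrk genes.

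Guidance ligands had 14 regions at 9 genes, of which 11 were positive and 3 negative, with a median of 0.07. The 3 negative values were small, between -0.09 and -0.04. Semaphorins held 11 of these regions, at 6 of 20 genes.

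Sema6d encodes a membrane-bound semaphorin. Its first region, on chromosome 2 from 124618651 to 124618710, lies inside the gene, 49.1 kb from an end. In the authors' deposited table it had a log2 fold change of 1.24, or 2.36-fold (p = 0.00091, FDR 0.061), and it marks both windows as up. It did not pass the threshold of 0.05. The second region, 51.3 kb outside the gene, was listed at 0.22 (p = 0.664 in the authors' deposited table).

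The other semaphorin regions lay close to 0. Sema3a, which encodes a secreted repellent of axons, had 3 regions at -0.09, -0.04 and 0.00, with p-values of 0.776 or higher. Sema4b had 2 regions at 0.22 and 0.06, Sema5a 1 at 0.03, Sema5b 1 at 0.28, and Sema6a 2 at -0.06 and 0.04 in the authors' deposited table. The smallest p-value among these 9 regions was 0.412, at Sema5b.

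Efna5 encodes ephrin-A5, a membrane-anchored ligand of EphA receptors. Its region on chromosome 17 from 62652601 to 62652760, inside the gene, had a log2 fold change of 0.54 in the authors' deposited table (p = 0.034, FDR 0.374). The table marks 2 of its 4 windows as up. Efna1 had a region 91 bp from a gene end, at 0.08 (p = 0.789 in the authors' deposited table). The secreted Robo ligand Slit3 had 1 region inside the gene at 0.37 (p = 0.316 in the authors' deposited table). No listed region was nearest to Slit1, Slit2 or the 3 ephrin-B genes.

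Guidance receptors had 24 regions at 13 genes, with 16 positive and 8 negative values and a median of 0.13. None passed an FDR of 0.05, and 3 of the 24 (12.5%, against 11.2% of all regions) had an unadjusted p-value of 0.05 or lower.

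Epha7 encodes a receptor for ephrin-A ligands and had 5 regions, 1 of them at its start and 4 between 73.0 and 636 kb outside the gene. The most distant one, on chromosome 4 from 28176901 to 28177060, is 636 kb upstream. The authors' deposited table lists it as down, at a log2 fold change of -0.67 (p = 0.00086, FDR 0.060), and marks all 4 windows as down. The next protein-coding gene, Manea, is 1830 kb away. The region at the start, whose sequence is shown above, was listed at 0.42 (p = 0.242, FDR 0.774 in the authors' deposited table), and the 3 downstream regions at 0.28, -0.07 and 0.17 (p-values of 0.401 or higher). The value of the distant region was thus not shared by the region at the start of the gene.

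Epha4, another ephrin-A receptor, had 2 regions upstream of the gene, 1.24 and 160 kb away, both at 0.34 in the authors' deposited table (p = 0.299 and 0.316). Epha5 had 1 region at 0.00, and Ephb1, the 1 gene among the ephrin-B receptors with a region, was listed at -0.06 (p = 0.866 in the authors' deposited table).

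Plxna2 encodes a plexin receptor for semaphorins. Its region on chromosome 1 from 194223201 to 194223260, which lies 397 kb upstream, had a log2 fold change of 1.21, or 2.32-fold, in the authors' deposited table (p = 0.0017, FDR 0.084). Both windows are marked as up. The 2 nearer regions were listed at 0.01, 256 kb upstream, and -0.36, inside the gene (p = 0.217 in the authors' deposited table). Plxna1, Plxna4 and Plxnd1 had 1 region each, at 0.03, -0.03 and -0.18.

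The netrin receptor Dcc had 2 regions inside its 1098 kb, and both were positive. The authors' deposited table lists a single-window region at 0.79 (p = 0.0206, FDR 0.295) and a region of 4 windows at 0.64 (p = 0.087, FDR 0.556). Of the other netrin receptors, Unc5a had a region 65.6 kb upstream at 0.62 (p = 0.127 in the authors' deposited table) and Unc5c a region inside the gene at 0.08 (p = 0.738). All 4 netrin receptor regions were positive, where 56.8% of all regions were, and none passed the threshold.

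Robo1 and Robo2, receptors for slits, had regions only inside their bounds. Robo1 had 3, at 0.58 (p = 0.131), -0.02 and -0.30, and Robo2 had 2, at 0.20 and 0.25, in the authors' deposited table.

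**Figure D3:**
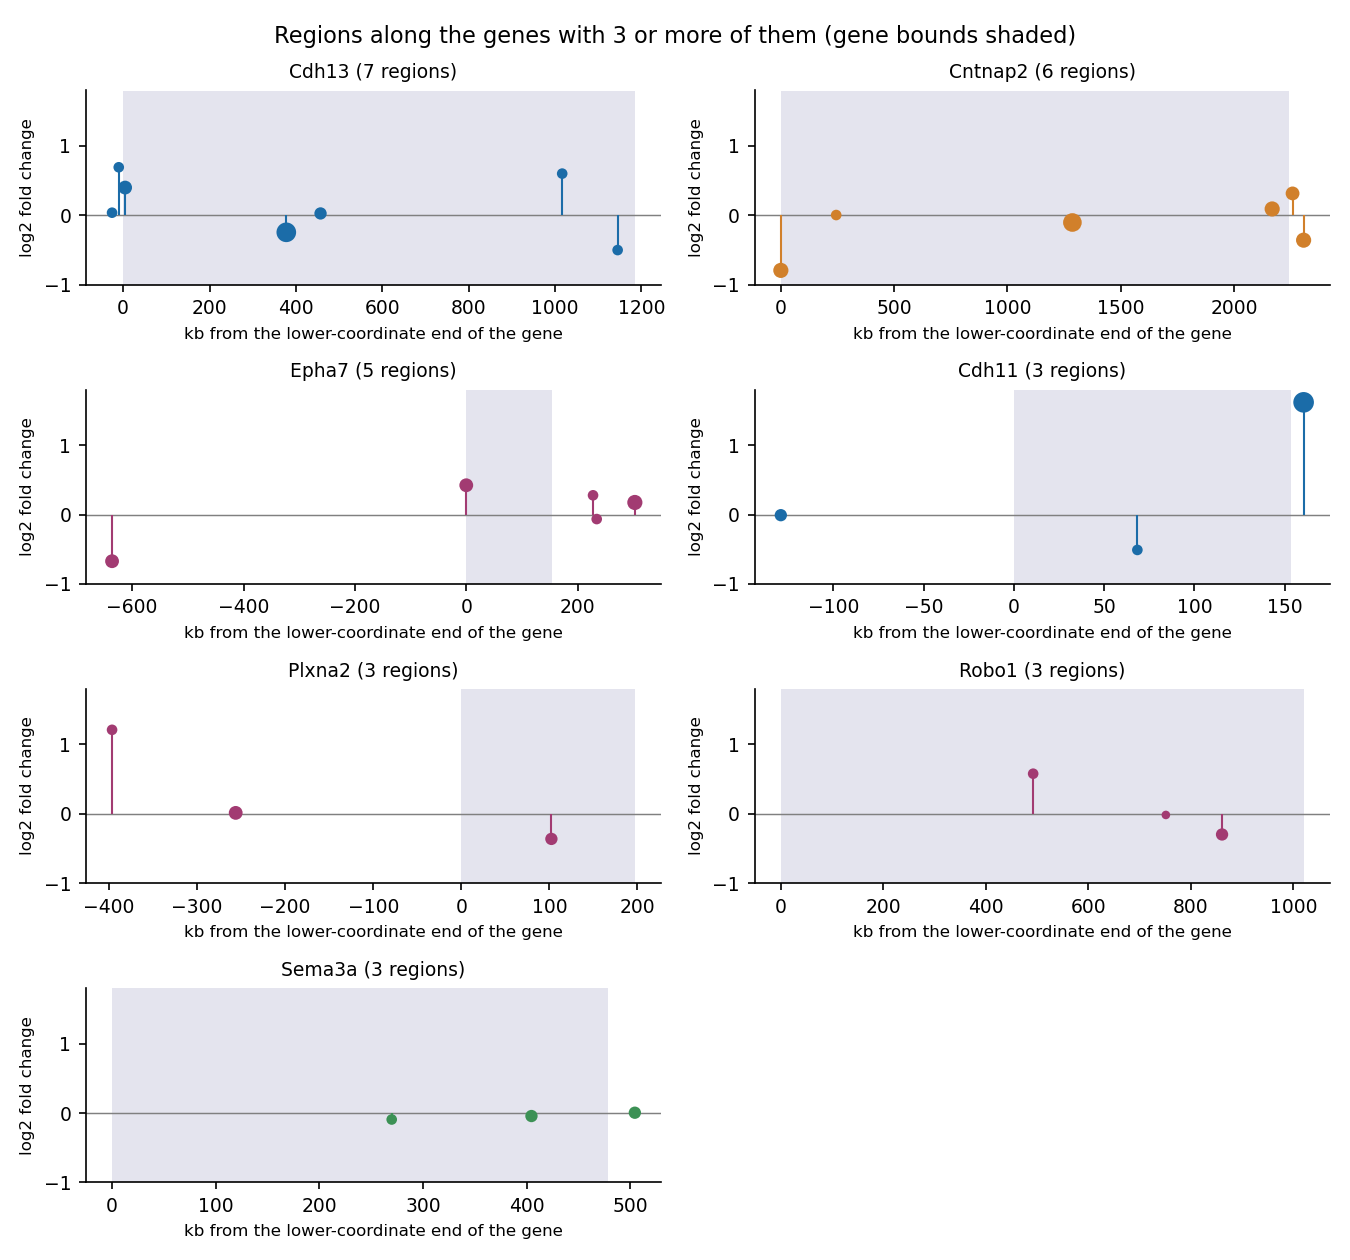
Deposited log2 fold change (y axis) of each region against its distance in kb from the lower-coordinate end of the gene (x axis) for the 7 genes with 3 or more regions, with gene bounds shaded and point area growing with the number of windows. The values farthest from 0 at Cdh11, Plxna2, Epha7 and Cntnap2 are 1.62, 1.21, -0.67 and -0.80, other regions of these genes lie between -0.51 and 0.42, and Sema3a's 3 values stay between -0.09 and 0.00.

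Some genes with several regions had values of 1 sign and others had values of both. Of the 49 genes, 29 had 1 region and 20 had 2 or more. All regions had 1 sign at 9 of these 20 genes, and each of the 9 was a gene with 2 regions. Of the 13 genes with 2 regions, 9 had 1 sign, against 388 of 722 such genes in the whole table (53.7%). Each of the 7 genes with 3 or more regions had values of both signs. No share over all genes was computed for these, so it is not read as a trait of the group. The signs also depend on the window used. With best windows, Sema3a had negative values only and Sema6a positive values only, while Cdh6, Cntnap1 and Pcdh9 had both signs. The share over all genes was not computed with best windows. At Sema6d the 2 values were 1.02 apart, and at Epha4 they were the same to 2 decimals.

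The regions lay far from gene ends. The median distance to the nearer end of the assigned gene was 79.4 kb, against 12.4 kb for the 6726 regions on assembled chromosomes. Only 6 of the 85 (7.06%) lay within 1 kb of a gene end, against 26.4% of all, and 18 (21.2%) lay over 100 kb outside the gene, against 8.85%. Inside a gene were 44 of the 85, or 51.8%, against 56.1%. These genes are long, with a median of 227 kb against 34.2 kb for all 4543 genes with a region; the part of gene length in these distances was not tested.

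**Figure D4:**
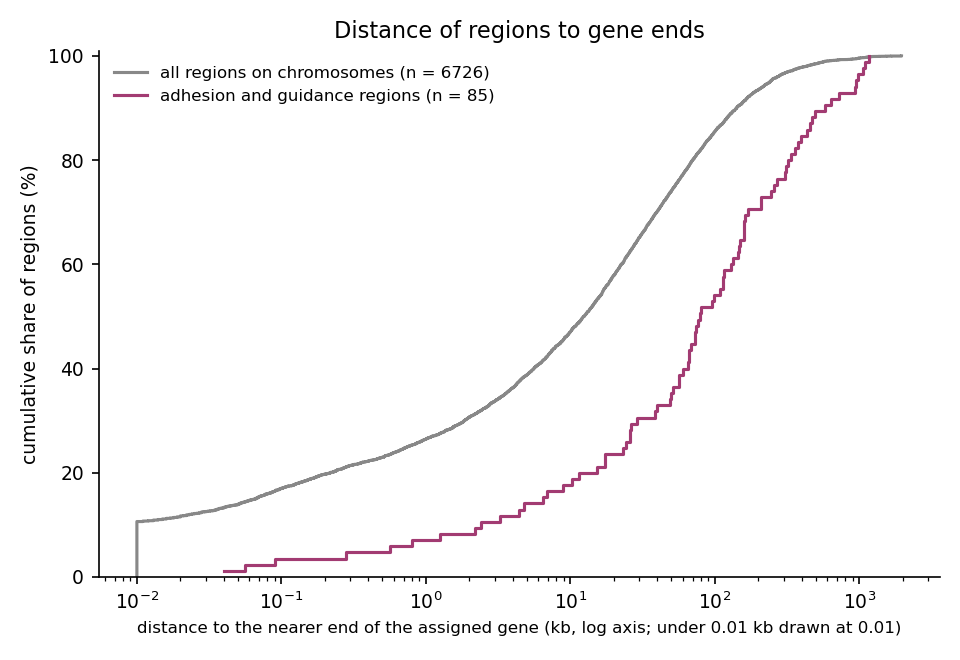
Cumulative share of regions (y axis, percent) by distance to the nearer end of the assigned gene (x axis, kb, log axis, values under 0.01 kb drawn at 0.01) for the 85 adhesion and guidance regions and for all 6726 regions on assembled chromosomes. The line of the adhesion and guidance regions runs to the right of the other, with medians of 79.4 and 12.4 kb.

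The 6 regions within 1 kb of a gene end belonged to Pcdh1, Cntnap2, Efna1, Sema4b, Epha7 and Cntnap1, and 4 of them were positive. In the authors' deposited table their median log2 value was 0.07, while all 1778 such regions had a median of -0.05. The 40 regions inside a gene and over 1 kb from its ends had a median of 0.00, against 0.09 for all 2630 of that kind. The 5 regions 1 to 10 kb outside a gene, at Cdh1, Cdh11, Cdh22, Cdhr3 and Epha4, were all positive, with a median of 0.34 against 0.11. Of all 599 regions of that kind, 40.1% were negative. The 16 regions 10 to 100 kb outside a gene had a median of 0.13 against 0.12, and the 18 regions over 100 kb away had a median of 0.23 against 0.09. With all regions within 1 kb of a gene end left aside, 34.2% of the group and 37.4% of all on assembled chromosomes were negative, closer than the 34.1% and 42.9% with them included.

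Chromosome 8 carried 15 of the 85 regions, or 17.6%, against 5.73% of all regions. They belonged to 6 genes, Cdh1, Cdh5, Cdh8, Cdh11, Cdh13 and Cntnap4, with 7 of them at Cdh13. The group was chosen by gene symbol, so this share also depends on where its genes lie. The share of those genes that lie on chromosome 8 was not computed. Regions of the group lay on 19 chromosomes in all.

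Of the 193 genes that fit the symbols, 144 were nearest to no listed region. The 49 with a region were 25.4% of the 193, against 20.8% of 21887 protein-coding genes. Leaving out the 57 clustered protocadherins, 49 of 136 (36.0%) had one. None of those 57 had a region, so leaving them out could only raise the share. No such block was left out of the protein-coding genes, and the part of gene length in these shares was not tested. Besides those named above, genes without a region included Cdh3, Cdh12, Cdh15, Robo3, Robo4, Unc5b, Unc5d, Plxnb1 and Plxnb2. A gene without a listed region is one to which no region of the table lies nearest; how the authors chose the windows is not given in the sources used here.

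A further list of 100 genes of adhesion and guidance outside these families, among them netrins, neuropilins, teneurins, nectins, catenins and cytoplasmic effectors, was described in the same way. They had 93 regions at 43 genes, with 49 positive and 44 negative values and a median of 0.01. At an FDR of 0.05, 2 of the 93 (2.15%, against 1.36% of all regions) were called, both listed as down in the authors' deposited table. The first, on chromosome 2 from 98662151 to 98667360, is nearest to Lrrc4c, a synaptic adhesion protein, but 1030 kb from it and 5210 bp wide, at a log2 fold change of -0.39 (FDR 0.0019). The other lies on chromosome 6 from 103649051 to 103649310 inside Chl1, which encodes a neural adhesion molecule related to L1, at a log2 fold change of -0.27 (FDR 0.033). An unadjusted p-value of 0.05 or lower was listed for 14 of the 93 (15.1%, against 11.2% of all regions), at 11 genes, and their smallest p-values ran from 3.0e-06 at Lrrc4c to 0.0493 at Nfasc.

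The assignment to a gene rests on distance along the chromosome alone. When genes of every kind were allowed, 52 of the 85 regions kept an adhesion or guidance gene as their nearest. The called Cdh11 region was among them, as was the high region of Sema6d. The distant region of Epha7 then fell inside the RNA gene Gm52725, and that of Plxna2 lay 0.442 kb from 4930503O07Rik.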

How the data were processed

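One deposited table was used, the authors' region-by-region comparison of NKX2.2 ChIP-seq in 3 Klf4-knockdown and 4 scramble samples of the 14 samples in the series. Per the labels' design text it was made with csaw, which tests short windows and combines neighbouring ones into regions. The submitters' processing notes also name FastQC, Bowtie2, MACS2 and build mm10 (GRCm38), with no role or order. Per the file headers, each region carries p-values and FDR values, log2 fold changes of a representative and a best window, and other counts, which number windows and not reads. Normalization, window filter and use of the input libraries are not given in the sources used here. The table holds no values per sample, so depth is unknown, no count test could be run, and every p-value and FDR is the one deposited by the authors, with no replicate error of its own. Nothing states whether the samples were separate cultures.

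Each region on an assembled chromosome received the closest of the 21887 protein-coding genes in RefSeq assembly GRCm38.p6 (distance 0 where they overlap, ties to the gene with the closer end, then by symbol). The 32 regions on contigs were not assigned. Lists are described by counts and medians beside all regions, without tests over regions. Motifs were searched on both strands of RefSeq promoter windows. Regions named are those at an FDR of 0.05, the smallest p in each subfamily, the 10 genes with most regions, the 5 highest and 5 lowest log2 fold changes and the 5 regions with most windows. Further regions named were chosen after their values were seen. The members, lists and alternatives were chosen with earlier results of these data known. The assignment and adjustment were tested on simulated data. Scripts ran under Python 3.11.15 with pandas 2.3.3, numpy 2.4.6, matplotlib 3.10.9 and scipy 1.17.1.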

Additional observations from a re-analysis of the deposited data

How the results depend on the processing

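No paired analysis was possible because no column of the deposited file belongs to a sample or a replicate, and leaving out replicates was not run for the same reason. The count of 1 region at an FDR of 0.05 became 4 at an FDR of 0.1, and 0 without chromosome 8, which carries the Cdh11 region; this alternative was chosen after the data were seen. The 10 regions at an unadjusted p-value of 0.05 became 4 at 0.01. Under the other alternatives for these counts (best window, regions within 10 kb of the gene, 2 or more windows, no region wider than 1 kb, nearest gene of any kind, midpoint distances, and an FDR of 0.01), the FDR count stayed at 1, and the unadjusted count, run without the last of these, stayed between 7 and 10. The share of negative values ranged from 32.9% with 2 or more windows to 42.3% with genes of any kind, and the median log2 fold change from 0.02 with genes of any kind to 0.17 with best windows.

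Over the 85 regions and 6 alternatives, 436 values could be computed. Only the best window can give a region another log2 fold change, so only there could a sign change. The sign differed from the one reported in 12 of the 85 best-window values. The positive values of Cdh8, Cntnap1, Cdh6, Plxna1, Cdh13, Epha5 and Sema3a became -0.42, -0.36, -0.24, -0.24, -0.20, -0.15 and -0.11 for 1 region each, and the negative values of Sema6a, Epha7 and Pcdh9 became 0.26, 0.16 and 0.12. At Cntnap2, 2 regions turned, to 0.17 and -0.12. The Cdh11 region had an FDR of 0.0048 with the best window. Its FDR was 0.0039 when the same p-values were adjusted over regions of 2 or more windows. It was 0.0062 when regions wider than 1 kb were left out. The alternatives of gene assignment and distance do not enter the FDR, so it could not change there. For each of these shifts the cause was not tested. Since the depth is unknown, it limits what can be said of regions that did not pass.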
